A study of Canis lupus familiaris with 14 samples.

Results

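TBX5, PITX1 and HOXC10 are 3 transcription factor genes that mark position along and between the limbs, and they were followed here in 14 libraries of polyadenylated RNA from 7 dogs with osteosarcoma (OSA), the most frequent primary tumor of bone. They were chosen by name, with earlier results of these data known, through the gene symbols that the study pairs with Ensembl identifiers, and are 3 of the 30951 genes in the count table: TBX5 is ENSCAFG00000009189, PITX1 is ENSCAFG00000001065 and HOXC10 is ENSCAFG00000006648. Each dog, A to G, gave 1 library of OSA tumor and 1 library of normal bone from the second phalanx of the same amputated leg. All 7 were adult, neutered pet dogs that had received no chemotherapy and had no lung metastases visible on radiographs. The tumor lay in the forelimb of 5 dogs, in the left distal radius of A, C and E, the right distal radius of F and the left proximal humerus of D. It lay in the hindlimb of 2 dogs, in the left distal femur of B and the right distal tibia of G. Dogs A and F were Golden Retrievers, B a Rottweiler, C a Doberman Pinscher, D and G Greyhounds and E a Great Pyrenees, so breed, individual and site cannot be told apart. The bone library is therefore a distal bone of the same limb and not the bone in which the tumor grew, and bone and tumor RNA were extracted by different methods, which cannot be told apart from the tissue.

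The vertebrate limb bud acquires its identity from a small set of transcription factors. TBX5, a T-box factor, is required for the forelimb bud to form, and PITX1, a paired-type homeodomain factor, is expressed in the hindlimb bud and acts upstream of TBX4 there. HOXC10 belongs to the posterior end of the HOXC cluster, whose genes are expressed in the hindlimb and at lumbar levels of the trunk, while HOXA13 and HOXD13 mark the most distal segment, the paw. Part of this embryonic HOX pattern persists in adult connective tissue cells. Where a phalanx is compared with a tumor of the radius, humerus, femur or tibia, position along the limb and tissue cannot be told apart.

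Total counts lay between 22564544 and 34479429 in the bone libraries and between 18650945 and 32887213 in the tumor libraries. The levels below are normalized counts, which are read counts divided by the size factor of each library. They allow a gene to be compared between libraries, but not 1 gene with another. Osteocyte markers were present in every bone library, where the summed normalized count of the 5 of 6 listed genes that could be paired with an identifier (SOST, DMP1, MEPE, PHEX and FGF23) ranged from 7720 to 134000, against 111 to 13300 in tumor. The osteoblast genes BGLAP and SPP1 (2 of 8 listed) summed to 55600 to 139000 in bone and 3450 to 41500 in tumor. Proliferation genes (5 of 6 listed, among them MKI67 and TOP2A) summed to 711 to 1760 in bone and 3930 to 25500 in tumor. The 5 adipocyte genes measured (of 6 listed) summed to 12300 to 76600 in bone and 1390 to 5810 in tumor. The single skeletal muscle gene with an identifier, ACTA1, reached 0 to 657 in bone and 384 to 6150 in tumor. Chondrocyte genes (2 of 8 listed) summed to 230 to 2020 in bone and 65.1 to 1130 in tumor, macrophage and osteoclast genes (3 of 7) to 115000 to 521000 and 6150 to 603000, and the endothelial gene EMCN to 1030 to 2290 and 366 to 1270. No tendon or skin marker could be paired with an identifier. In RNA from whole tissue, fewer cells of a type and less RNA per cell cannot be told apart.

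TBX5 was present in all 7 bone libraries and differed widely between tumors. In bone the lowest normalized count was 204 (dog B), the median 415 and the highest 659 (dog A). In tumor the lowest was 3.53 (dog G), the median 76.7 and the highest 327 (dog E). The bone values thus spanned a 3.23-fold range and the tumor values a 92.8-fold range. Tumors C and E had TBX5 at 265 and 327, within the range of bone, whereas tumors B (122), A (76.7), F (30.0), D (7.26) and G (3.53) lay below every bone library.

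Within dogs, TBX5 was lower in tumor than in bone in 6 dogs and higher in 1, dog E. Bone exceeded tumor 96.4-fold in dog G (95% counting interval 32.8 to 469), 57.2-fold in dog D (28.8 to 133), 15.6-fold in dog F (11.2 to 22.5) and 8.59-fold in dog A (6.29 to 12). The differences in B and C were small beside these, at 1.68-fold (1.35 to 2.09) and 1.93-fold (1.64 to 2.28). In dog E the order was turned, with tumor 1.25-fold above bone (1.04 to 1.5). These intervals, and the limits given for a count of 0, cover counting error only. The fold in G rests on 3 reads in the tumor library against 430 in bone.

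PITX1 showed the opposite order, low in bone and high in some tumors. In bone the lowest count was 0 (dog D, where the sampling limit of 3 reads corresponds to a normalized count of 2.22), the median 10.3 and the highest 50.2 (dog B). In tumor the lowest was 5.09 (dog C), the median 197 and the highest 1060 (dog G). The tumors fell into a high set, G (1060), B (678), A (197) and F (197), and a low set, E (10.9), D (5.44) and C (5.09), with no value between. The 3 low tumors lay within the range of the bone libraries.

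The rise of PITX1 from bone to tumor was largest in F and G. It was 147-fold in dog F (40.3 to 1220, from 2 reads in bone), 103-fold in dog G (60.1 to 195), 18-fold in dog A (9.9 to 35.9) and 13.5-fold in dog B (10.1 to 18.5). In dog D the tumor count of 6 reads against 0 gives at least 2.45-fold. In dog E the ratio of 4.16 (0.862 to 39.6) and in dog C the ratio of 0.492 (0.114 to 1.66) both had counting intervals that include no difference.

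HOXC10 was close to undetectable in bone and present in 6 of the 7 tumors. The 7 bone libraries together held 11 HOXC10 reads, with 0 in D, E and F (limits of 2.22, 3.92 and 2.01 normalized counts) and at most 3.76 normalized counts (dog C). In tumor the lowest was 0 (dog E, limit 3.62), the median 196 and the highest 602 (dog B). The other tumors lay at 344 (F), 272 (C), 196 (D), 150 (A) and 129 (G), all above every bone library. Tumor E, from the distal radius as were A, C and F, was the exception, and its bone library held no HOXC10 read either.

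The tumor to bone ratio of HOXC10 was 282 in dog B (77.7 to 2330), 82.1 in dog A (22 to 689), 72.4 in dog C (27.9 to 268) and 54.5 in dog G (18.2 to 269). It was at least 172-fold in dog F and at least 88.3-fold in dog D, where bone held 0 reads. No ratio can be given for dog E.

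**Figure D1:**
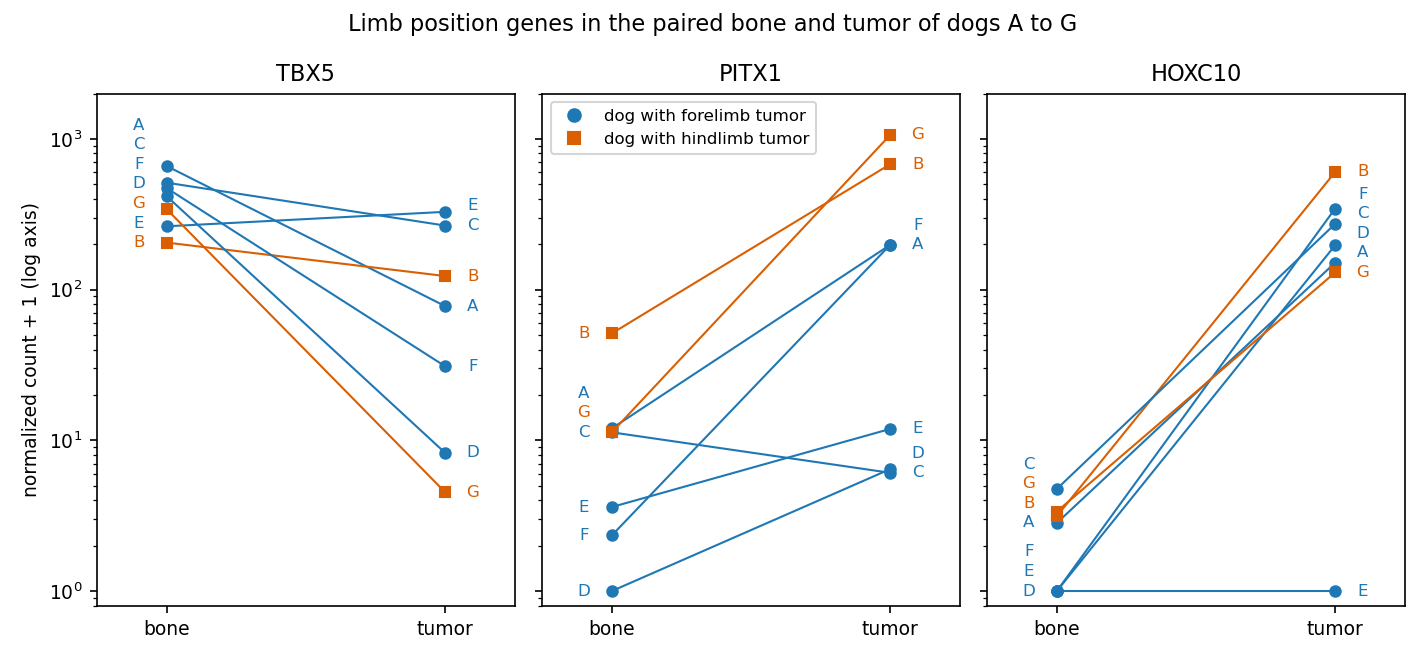
Normalized counts plus 1 (log axis) of TBX5, PITX1 and HOXC10 in bone and tumor; each line joins the libraries of 1 dog, with forelimb tumors as blue circles and hindlimb tumors as orange squares. TBX5 is lower in tumor in 6 dogs and not in E, PITX1 separates tumors A, B, F and G from C, D and E, and HOXC10 is higher in tumor in every dog but E, whose 2 libraries are both at 0.

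The first comparison asked whether tumor and the paired bone differed over the 7 dogs, with dog as a term in the model. A gene was called at a false discovery rate (FDR) under 0.05 in the edgeR quasi-likelihood test, with a mean normalized count over 10 and a fold change over 2. Of 27655 genes tested, 372 were called higher in tumor (1.35%) and 494 lower (1.79%). HOXC10 and PITX1 were called higher and TBX5 was not called, so that 2 of the 3 genes were called higher and 0 lower. Because a gene could enter only through a symbol, the nearer background is that of the 2292 genes with a symbol, of which 15.5% were called higher and 18.8% lower. HOXC10 had the 41st smallest p of all genes, PITX1 the 981st and TBX5 the 2436th.

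HOXC10 was higher in tumor by 7.28 on the log2 scale (SE 0.76, edgeR FDR = 0.0029). The mean normalized count was 242 ± 193 in tumor and 1.44 ± 1.48 in bone (SD, n = 7 each). The call held without any single dog, with an FDR between 0.0036 and 0.0118 and a log2 difference between 6.84 and 7.67. Within the 5 dogs with a forelimb tumor the log2 difference was 7.53 (edgeR FDR = 0.0475), and within the 2 with a hindlimb tumor it was 6.85, which did not pass (edgeR FDR = 0.381).

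PITX1 was higher in tumor by 4.14 (SE 0.96, edgeR FDR = 0.0433), with a mean of 308 ± 408 in tumor and 12.2 ± 17.4 in bone (SD, n = 7 each). The SD of the tumors exceeded their mean, as the high and low sets described above imply. This call was kept only when dog C was left out (edgeR FDR = 0.0127). Without A, B, D, E, F or G the edgeR FDR was between 0.0615 and 0.117, while the log2 difference remained between 3.52 and 4.41.

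TBX5 was lower in tumor by a log2 fold change of -2.78 (SE 0.89), which did not pass the threshold over all genes in the edgeR test (FDR = 0.121). Its mean was 119 ± 129 in tumor and 409 ± 155 in bone (SD, n = 7 each). The DESeq2 Wald test on the same libraries called it, at -2.86 (FDR = 0.000391), but that test called 2038 genes in all.

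An exact permutation test that exchanged bone and tumor within dogs was also run for each gene on log2 CPM, the counts scaled to the size of each library. The two-sided p was 0.0312 for each, where the 128 arrangements allow no p below 0.0156 for TBX5 and PITX1. For HOXC10, whose difference in dog E was 0, 0.0312 is the smallest p the test can give. The mean difference over 7 dogs was -2.84 (SD 2.47) for TBX5, 3.23 (SD 2.56) for PITX1 and 5.32 (SD 2.54) for HOXC10. These are raw p-values from a family of 9 such tests, 3 genes in 3 comparisons. Each gives the share of arrangements with an absolute mean difference at least as large, with 1 library per dog and tissue.

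The 3 genes were combined differently in different tumors. Tumor E had TBX5 within the bone range, little PITX1 and no HOXC10 read, whereas tumor C also had TBX5 within the bone range and the lowest PITX1 but held HOXC10 at 272. Tumor D had a low TBX5 (7.26) without a high PITX1 (5.44). Tumors A, F and G combined a low TBX5 with a high PITX1, and tumor B had a high PITX1 (678) beside a TBX5 of 122, which was 1.68-fold below its bone. The 4 tumors of the same site, the distal radius, differed 10.9-fold in TBX5, 38.8-fold in PITX1 and at least 95.1-fold in HOXC10. Dogs A and F, of the same breed and site, had PITX1 at 197 each in tumor but differed in TBX5 (76.7 and 30.0) and HOXC10 (150 and 344). The Greyhounds D and G, with tumors of different limbs, had PITX1 at 5.44 and 1060.

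Markers of other tissue components also differed between the tumors. Summed osteocyte markers were 13300 in C, 12200 in E, 2940 in D, 1420 in F, 906 in A, 155 in G and 111 in B. The 3 tumors with the lowest PITX1 (C, D and E) thus had the 3 highest osteocyte sums, and the 2 with the highest PITX1 (G and B) had the lowest, an order carried by DMP1. The other markers did not repeat it in full. PHEX was lowest in G (16.5) and B (17.6), but in D (58.1) it lay below F (161) and A (148). MEPE was higher in A (58.5) than in C or D. In D most of the sum was DMP1 (2860), with SOST at 9.98 and MEPE at 8.17, and FGF23 was 0 in C and D and highest in G (57.6). In C most of the sum was also DMP1 (12300), with SOST at 313 and MEPE at 30.5, whereas E had DMP1 at 3900, MEPE at 3770 and SOST at 3700. Tumor E had the lowest sum of proliferation genes, 3930, and tumor F the highest, 25500. Of the 5 osteocyte markers 2 were called lower in tumor, beside 18.8% of all genes with a symbol. These were SOST by a log2 fold of -6.93 and MEPE by -7.39 (edgeR FDR = 0.0109 and 0.0153), while DMP1 (-3.73), PHEX (-2.33) and FGF23 (-2.71) did not pass (edgeR FDR = 0.0516, 0.0849 and 0.407). The 5 proliferation genes were all called higher, beside 15.5% of all genes with a symbol, MKI67 by 3.02 (edgeR FDR = 0.00286). The part of these components in the TBX5, PITX1 and HOXC10 values was not tested. RNA integrity, by the study's own measurement, was lowest in the bone of B and the tumor of A, and its part was not tested either.

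The second comparison set the limbs against each other, with the labels of forelimb and hindlimb taken from the tumor site of each dog. In bone, TBX5 was 464 ± 144 in the 5 forelimb dogs and 272 ± 96.1 in the 2 hindlimb dogs (SD). The hindlimb phalanges of B and G held TBX5 at 204 and 340, and the forelimb phalanges ranged from 262 to 659, so that the groups overlapped and the forelimb factor was not absent from hindlimb bone. PITX1 in bone was 5.05 ± 5.2 in forelimb dogs and 30.2 ± 28.2 in hindlimb dogs (SD). That difference came mainly from dog B (50.2), because the other hindlimb phalanx, G, had 10.3, the same as forelimb dog C (10.3) and slightly below A (11.0). HOXC10 in bone was 1.12 ± 1.68 in forelimb and 2.25 ± 0.166 in hindlimb dogs (SD), all within a few reads of 0.

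None of the 3 genes passed the test between limbs in bone, in which 0 of 26244 genes were called higher in hindlimb (0%) and 1 lower (0.00381%), while 1297 had an unadjusted p under 0.05 and DESeq2 called 22. The log2 difference, hindlimb over forelimb, was -0.78 for TBX5 (SE 0.37, edgeR FDR = 0.813), 2.53 for PITX1 (SE 1.21, edgeR FDR = 0.813) and 0.95 for HOXC10 (SE 1.71, edgeR FDR = 0.925). Without dog B the TBX5 difference was -0.43, and without G it was -1.25, while HOXC10 reached 2.07 without C. Without dog B the PITX1 difference was 1.05 (edgeR FDR = 0.892), with G as the only hindlimb dog and assumed to vary like the others. Exact permutation over the 21 arrangements of 2 dogs among 7 gave two-sided p = 0.19 for TBX5, 0.143 for PITX1 and 0.333 for HOXC10, and cannot give a p below 0.0476. The 1 gene called, ENSCAFG00000018512 (log2 difference -9.98, edgeR FDR = 0.0109), has no symbol here and is named only because it is the single call.

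In tumor, 0 of 25822 genes were called higher in hindlimb (0%) and 1 lower (0.00387%), with 1205 at an unadjusted p under 0.05 and 124 called by DESeq2. PITX1 was the gene of the 3 whose limb groups did not overlap, and it was not among those called. The share of all genes whose limb groups separate likewise was not counted, so this separation is a description only. Hindlimb tumors B and G had 678 and 1060 (870 ± 272, SD, n = 2), and the 5 forelimb tumors had 5.09 to 197 (83.1 ± 104, SD). TBX5 was 62.6 ± 83.6 in hindlimb tumors, from 122 in B and 3.53 in G, and 141 ± 145 in forelimb tumors (SD), which ranged from 7.26 to 327 and therefore overlapped. HOXC10 was 365 ± 334 in hindlimb tumors, from 602 in B and 129 in G, and 193 ± 131 in forelimb tumors (SD), which ranged from 0 to 344 and also overlapped.

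The log2 difference between limbs in tumor was 3.43 for PITX1 (SE 1.22, edgeR FDR = 0.934), -1.14 for TBX5 (SE 1.47, edgeR FDR = 0.974) and 0.94 for HOXC10 (SE 1.24, edgeR FDR = 0.981). None passed over all genes, among which PITX1 had the 483rd smallest p. Exact permutation over dogs gave two-sided p = 0.0952 for PITX1, 0.476 for TBX5 and 0.571 for HOXC10, with the same lowest possible p of 0.0476. The TBX5 difference was -5.28 without dog B and -0.19 without G, each with 1 hindlimb tumor left, which the fit assumes to vary like the others, and is given as a value only. The direction of HOXC10 depended on dog B, since without it the log2 difference was -0.58, again with 1 hindlimb tumor left. The 1 gene called was ENSCAFG00000040846 (-13.08, edgeR FDR = 0.0271), singled out after its value was seen.

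Whether the change from bone to tumor itself differed between limbs was tested by an interaction term. The difference of log2 changes, hindlimb minus forelimb, was -0.51 for TBX5 (SE 2.19), 1.76 for PITX1 (SE 1.96) and -0.67 for HOXC10 (SE 1.33), each with an edgeR FDR of 1. Of 27655 genes, 0 were called higher (0%) and 1 lower (0.00362%), again ENSCAFG00000040846 (-12.78, edgeR FDR = 0.0425), with 434 at an unadjusted p under 0.05 and 32 called by DESeq2. With 2 hindlimb dogs, the signs for TBX5 and HOXC10 changed when single dogs were left out, and PITX1 ranged from 0.4 without G and 0.51 without C to 3.26 without B. These errors leave room for sizeable differences in either direction.

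Ordered by mean over the 4 combinations of tissue and limb, TBX5 was highest in forelimb bone, then hindlimb bone, forelimb tumor and hindlimb tumor, and each neighbouring pair overlapped. PITX1 ran from hindlimb tumor to forelimb tumor, hindlimb bone and forelimb bone, and among neighbours only hindlimb and forelimb tumor were separate. By median, hindlimb bone (30.2) lay above forelimb tumor (10.9). HOXC10 ran from hindlimb tumor through forelimb tumor to hindlimb and forelimb bone, and every neighbouring pair overlapped, forelimb tumor and hindlimb bone only through tumor E at 0.

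The 2 limb factors can be set against each other within a library, where normalization cancels. This ratio was chosen after the levels had been seen and is given without a test. In bone, PITX1 reads per 100 TBX5 reads numbered 0 in D, 0.285 in F, 0.995 in E, 1.66 in A, 2.02 in C, 3.02 in G and 24.6 in B. The ratio in B (95% counting interval 17.5 to 34) lay above all others, whereas that in G (1.6 to 5.23, from 13 PITX1 reads) was not separate from that in C (1 to 3.65, from 11), A (0.855 to 2.92) or E (0.12 to 3.64). In tumor the ratio was 1.92 in C, 3.32 in E, 75 in D, 257 in A, 557 in B, 656 in F and 30100 in G. Forelimb tumor F (460 to 959) was not separate from hindlimb tumor B (468 to 666), while tumor G (10300 to 146000, from 3 TBX5 reads) lay above all others. In dogs C and E the counting intervals of tumor (0.519 to 5 and 1.5 to 6.4) and bone overlapped, and in the other 5 dogs the ratio was higher in tumor.

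**Figure D2:**
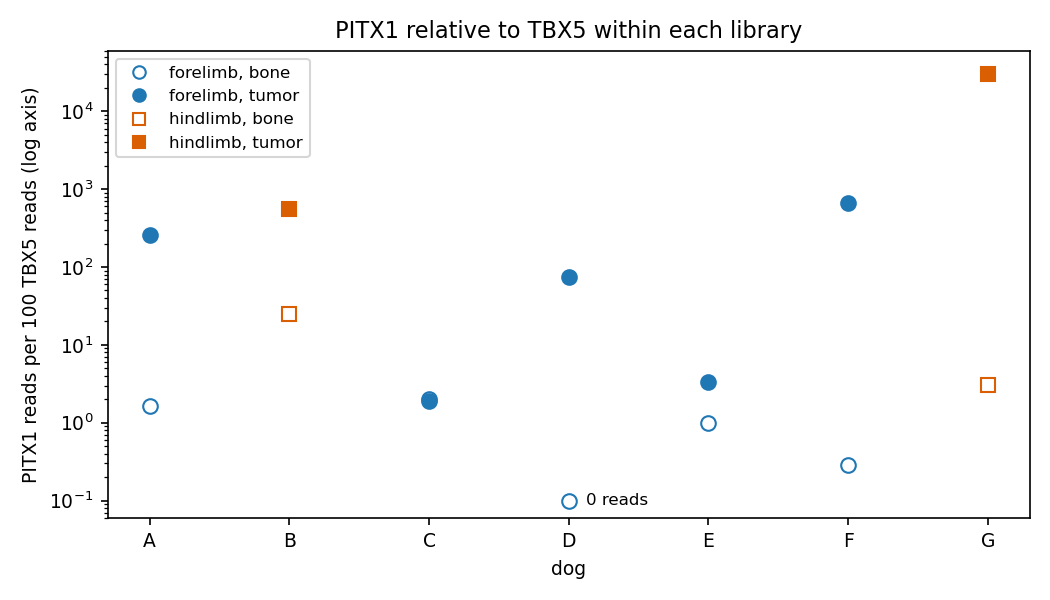
PITX1 reads per 100 TBX5 reads (log axis) in the bone (open) and tumor (filled) library of each dog, blue circles for forelimb and orange squares for hindlimb; the bone of D, with 0 PITX1 reads, is drawn at the foot of the axis. The bone of B (24.6) lies above the other bones, that of G (3.02) lies close to C (2.02), and tumors F (656) and B (557) lie side by side.

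HOXC10 was set beside the other HOX genes, grouped by cluster. Of 39 HOX genes listed, 8 could be paired with an identifier: HOXA5, HOXA7, HOXA13, HOXC4, HOXC5, HOXC6, HOXC10 and HOXD3. Since the study names mainly the genes it calls different, these 8 are not an even sample of the family. Among the 8 HOX genes, 4 were called higher in tumor, 1 lower and 3 not called. Of all genes with a symbol, 15.5% were called higher and 18.8% lower.

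In the HOXC cluster 3 of 4 measured genes were called higher, HOXC10 among them, beside 15.5% of the genes with a symbol. The 4 had a median log2 difference of 3.82, against -0.0475 over all genes and -0.8 over the genes with a symbol. HOXC6 rose by 3.98 (edgeR FDR = 0.00498), was higher in tumor in 7 of 7 dogs, and went from 0 to 15 normalized counts in bone to 10.9 to 375 in tumor. HOXC4 rose by 3.65 (edgeR FDR = 0.0275), from 21.1 ± 23.3 to 241 ± 256 (SD, n = 7 each), and was higher in 6 dogs, the exception being G with 67.2 in bone and 54.1 in tumor. HOXC5 had a log2 difference of 3.54 that did not pass (edgeR FDR = 0.263), at 2.2 ± 3.04 in bone and 25.3 ± 30.9 in tumor (SD, n = 7 each).

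In tumor E, where HOXC10 was 0, HOXC4 (30.2), HOXC6 (10.9) and HOXC5 (0) were the lowest of the 7, although HOXC4 in tumor A (36.5) was close. Within dog E, HOXC4 had 25 reads in tumor and HOXC6 9, and both had 0 in bone. Tumor D, the humerus tumor, had the highest HOXC4 (719), HOXC5 (89.8) and HOXC6 (375), while its HOXC10 (196) was the median. In the RefSeq gene table of another dog assembly the HOXC4 gene model overlaps HOXC5 and HOXC6, so the counts of these 3 may share reads and are not separate evidence, whereas HOXC10 overlaps no other HOXC gene there.

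HOXD3, an anterior gene of the HOXD cluster, rose by 1.89 (edgeR FDR = 0.0478) and was higher in 6 dogs, with dog G again the exception at 79.8 in bone and 32.9 in tumor. HOXA13, which patterns the paw, was the single HOX gene called lower, at -2.39 (edgeR FDR = 0.0278). It was 199 ± 40.7 in the phalanges and 43.3 ± 20.6 in the tumors (SD, n = 7 each), without overlap, since bone ranged from 132 to 249 and tumor from 2.72 in the humerus tumor D to 68.4 in F. Such separation was not particular to HOXA13, since MKI67 ranged from 170 to 487 in bone and from 1080 to 6810 in tumor. The share of all genes that separate likewise was not counted. HOXA5 and HOXA7, from the anterior and middle part of that cluster, were lower in tumor in 6 dogs each but did not pass (-1.16 and -1.02, edgeR FDR = 0.0919 and 0.0811).

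**Figure D3:**
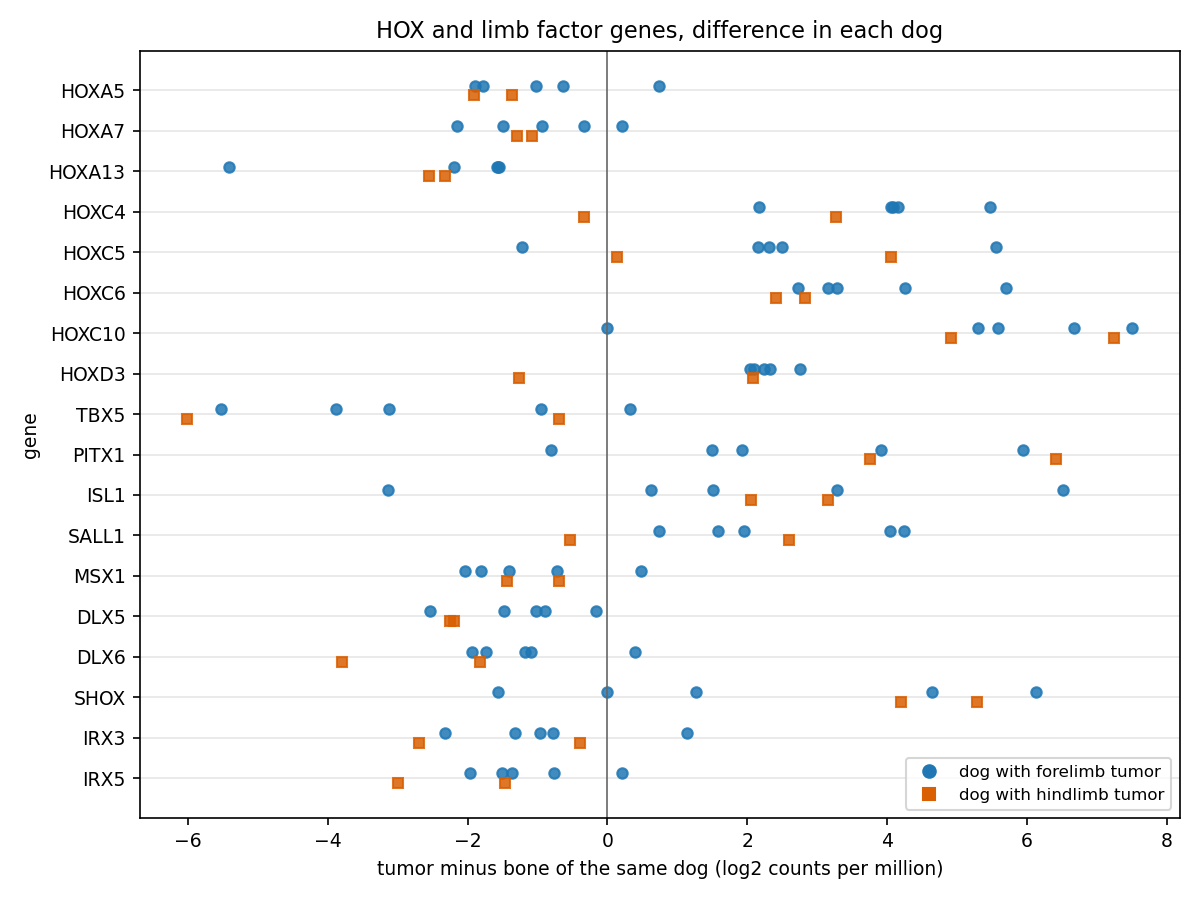
Tumor minus bone in each dog (log2 CPM) for the 8 HOX genes and 10 limb factors with an identifier; blue circles are dogs with a forelimb tumor and orange squares those with a hindlimb tumor. HOXA13 lies left of 0 and HOXC6 right of 0 in all 7 dogs, while TBX5 spreads from -6.01 (G) to 0.32 (E) and PITX1 from -0.81 (C) to 6.41 (G).

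Of 40 limb identity and limb bud factors listed, 10 had an identifier, TBX5 and PITX1 among them, and their median log2 difference was -1.09. PITX1 was the 1 called higher, and 2 were called lower, against 15.5% and 18.8% of all genes with a symbol. These were DLX5, a homeobox factor active in osteoblast differentiation, at -1.51 (edgeR FDR = 0.0212) and lower in 7 of 7 dogs, and IRX5, an Iroquois homeobox factor, at -1.41 (edgeR FDR = 0.0463) and lower in 6. DLX5 averaged 2880 ± 1320 in bone and 1160 ± 840 in tumor (SD, n = 7 each). The other factors that did not pass were SALL1 (2.16), ISL1 (3.28), SHOX (5.68), MSX1 (-1.11), DLX6 (-1.58) and IRX3 (-1.07), with edgeR FDRs from 0.0611 to 0.347. SHOX, which acts in the middle limb segment, was highest in tumor E (408), where HOXC10 was 0, and was 0 in tumors C and F. None of the HOX genes or limb factors with an identifier was called between limbs in bone, in tumor or in the interaction.

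The genes most like each of the 3 were taken by Pearson's r of log2 CPM over the 14 libraries among the 2291 other genes with a symbol, as a description without a test. The libraries share dogs, and many candidates differ between bone and tumor, so r was also computed after the mean of each tissue was subtracted. For TBX5 they were WSCD2 (r = 0.917, 0.848 within tissues), MFSD6L (0.871), CNKSR2 (0.861), CCL14 (0.852) and MPZL2 (0.844), the last 4 at 0.706 to 0.782 within tissues. For PITX1 they were USP43 (0.889, 0.853 within tissues), KCNF1 (0.848), RRP8 (0.836), AVPR1A (0.834) and ZNF488 (0.829), the last 4 at 0.745 to 0.776. For HOXC10 they were the condensin subunit gene SMC2 (0.938, 0.804 within tissues), DSN1 (0.925), CIP2A (0.919), CHAF1A (0.917) and RAD54L (0.916), the last 4 at 0.724 to 0.791. Tumor E, without a HOXC10 read, lay at a log2 CPM of -3.88, against 2.2 to 4.4 in the other tumors. It also had the lowest sum of proliferation genes (3930), and the weight of this 1 library in r was not tested. With a smaller prior count, 0.5 in place of 2, 4 of the 5 genes were shared for TBX5, 4 for PITX1 and 3 for HOXC10.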

How the data were processed

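Libraries were made from total RNA with the TruSeq PolyA kit and sequenced as paired ends. Per the labels, the authors trimmed reads with Trimmomatic 0.39, assessed them with FastQC 0.10.1, mapped them with HISAT2 2.2.1 to CanFam 3.1 and counted them per Ensembl gene with StringTie 1.3.3; strand and multi-mapping settings were not given in the sources used here. The deposited values are raw counts, with 1 column per library. Symbols were paired with 2292 identifiers through the study's supplementary tables. TBX4 was not used here, and coordinates served only to find which HOXC gene models overlap in a RefSeq gene table of another assembly.

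Genes with at least 1 count were tested in edgeR 4.0.16 (R 4.3.3) by the quasi-likelihood test with TMM normalization, with dog and tissue as terms, and with limb as the term within each tissue. FDR is Benjamini-Hochberg over all genes tested. Normalized counts used DESeq2 1.42.0 size factors, and log2 CPM used TMM and a prior count of 2. Counting intervals are exact binomial at 95%, and a count of 0 is limited at 3 reads. Bone and tumor of a dog are paired because they come from 1 animal. Over 18516 genes the deviations of the libraries from their tissue means correlated within dogs by -0.0115 to 0.131 (median 0.0973, above 0.1 in 3 dogs). The scripts were tested on simulated data. Named are the 3 genes, the 5 genes most like each of them, and the single genes called between limbs. Genes of fixed HOX, limb and marker lists are named whether called or not. The genes and lists were chosen with earlier results of these data known. Alternatives covered the test, normalization, low-count filter, thresholds, pairing, tumor site and omission of each dog.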

Additional observations from a re-analysis of the deposited data

Results flagged for a closer look

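One of 12 groups of libraries looked at, 3 genes in bone, in tumor and in the forelimb dogs of each tissue, held a library far from the others. For PITX1 in bone, dog B, with a tumor of the left distal femur, had 50.2 normalized counts, and its gap to the next library was 0.782 of the whole range of the 7. The rule sets a library apart in about 1 of 20 groups of normally distributed values, which these counts need not be. The forelimb groups are also parts of the groups of each tissue. The bone of B was also the library of lowest TBX5 in bone (204) and, per the study, the bone RNA of lowest integrity, and the part of integrity in these values was not tested.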

How the results depend on the processing

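Of the values of the 3 genes under other settings, 122 kept their direction and their side of the threshold, 11 kept their direction but no longer passed, 1 came to pass, 5 changed sign and 1 went to 0. All 11 were between tumor and bone, where 33 stayed the same. The others that stayed, 32 and 32 between limbs in bone and tumor and 25 in the interaction, had not passed before. The setting of FDR under 0.05 alone used the main fits. The DESeq2 Wald test called 2038 genes between tumor and bone (805 higher, 1233 lower), 22 and 124 between limbs in bone and in tumor and 32 for the interaction, and it called TBX5 (-2.86). Without the replicate block the edgeR test gave -1.8 for TBX5, 4.67 for PITX1 and 7.29 for HOXC10 and changed none of these calls, but it turned the split of called genes to 613 higher and 487 lower, from 372 and 494. In the forelimb dogs only, 131 genes were called and PITX1 (3.39) was not; in the hindlimb dogs only, 0 genes were called (1736 at an unadjusted p under 0.05), with PITX1 at 5.12 and HOXC10 at 6.85; in the distal radius dogs only, 0 were called (2775), with PITX1 at 3.16 and HOXC10 at 7.07. These subsets hold fewer samples. Leaving out 1 dog at a time gave 551 to 750 genes called between tumor and bone, the lowest without dog B, and 3.52 to 4.87 for PITX1. It gave 0 to 4 genes called between limbs in bone, 0 to 3 in tumor and 0 for the interaction in the edgeR test (357 to 870 at an unadjusted p under 0.05). It gave -0.58 to 1.66 for HOXC10 between limbs in tumor, negative without B, -3.9 to 1.96 for TBX5 in the interaction, positive without C, E or G, and -1.87 to 0.58 for HOXC10 in the interaction, positive without G and 0 without F. With genes kept by filterByExpr, 0 genes were called between limbs in tumor or in the interaction (682 and 427 at an unadjusted p under 0.05), and HOXC10 was not among the genes kept for the limb comparison in bone. The cause of these changes was not tested. HOXC10 in bone rests on 11 reads in 7 libraries, at most 4 in any of them, which limits what can be said of a limb difference there.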
